A study of Homo sapiens with 12 samples.

Results

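The genes of cholesterol synthesis and of its control by sterol regulatory element-binding proteins (SREBPs) were followed in RNA-seq libraries of triple-negative breast cancer cells. The set held 36 genes of the 32152 in the deposited table, taken by name for their role: 7 of the mevalonate part of the pathway, 11 that lead from squalene to cholesterol, 5 that sense sterol or carry the SREBP signal, 5 that move sterol inside or out of the cell, and 8 of fatty acid synthesis and desaturation. All 36 were listed as protein coding and all passed the filter on low values, which left 13737 protein-coding genes for testing.

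Cells make cholesterol from acetyl-CoA by way of mevalonate, the isoprenoid farnesyl diphosphate and squalene, which is folded into lanosterol and then trimmed to cholesterol. SREBF1 and SREBF2 encode transcription factors that are held in the endoplasmic reticulum by SCAP and the INSIG proteins while sterol is plentiful. When sterol runs low, SCAP escorts them to the Golgi, where proteases release the part that enters the nucleus and turns on these genes. Fatty acid genes respond mostly to the products of SREBF1, sterol genes to that of SREBF2, and the exporters ABCA1 and ABCG1 to the liver X receptors, which are switched on by oxidised sterols.

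The libraries came from MDA-MB-231 and Hs-578T, both established lines of triple-negative breast cancer with a mesenchymal phenotype, in 3 groups of 2 libraries per line. Parental cells were at passages 29 and 30 for MDA-MB-231 and at passages 83 and 84 for Hs-578T. Cells labelled ERK5-ko were made by CRISPR/Cas9 with guides to MAPK7, the gene of the kinase ERK5, and grown out as single-cell clones. In MDA-MB-231 this was 1 surviving clone, sequenced at passages 7 and 8, and the Hs-578T clone, at passages 8 and 9, was not named. The paper gives a higher passage for the parental cells used to make them. Passage numbers of ERK5-ko and parental libraries may therefore not count from the same point. Cells labelled MEK5DD were at passages 10 and 11 in MDA-MB-231 and at passages 8 and 9 in Hs-578T; the construct was not described in the sources used here, and its name commonly stands for MEK5, which phosphorylates and switches on ERK5, with aspartates at its activating sites. RNA was taken from cultures at 70% confluence, and no treatment beyond the engineering was given. In any comparison with parental cells, genotype and passage number cannot be told apart, and nothing said that libraries of a group came from separate clones, so that p-values measured only the spread between these libraries.

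The libraries held 20248162 to 27791195 reads. MAP2K5, the gene of MEK5, stood at 188 and 184 RPKM (reads per kilobase of transcript model and library size) in MDA-MB-231 MEK5DD libraries against 12.9 and 13.6 in parental ones, and at 21.3 and 23.8 against 14.6 and 16.9 in Hs-578T. MAPK7 RNA showed no drop with the ERK5-ko label, and each ERK5-ko library lay above both parental ones of its line. It read 16.3 and 17.8 RPKM against 13.3 and 14.3 in MDA-MB-231, and 17.8 and 18.1 against 13.97 and 15.98 in Hs-578T. The ERK5-ko direction thus did not rest on this RNA. It rested on the labels and on the paper, which reports the knockout of ERK5 protein by Western blot in both lines. ESR1 and PGR, receptors that triple-negative cells lack, stayed under 0.35 RPKM in every library, ERBB2 lay between 27.8 and 56.8 RPKM, and the leukocyte gene PTPRC did not exceed 0.396 RPKM. The endothelial gene PECAM1 did not exceed 0.841 RPKM in MDA-MB-231. In Hs-578T it was at 5.39 and 5.72 RPKM in parental, 6.48 and 6.31 in ERK5-ko and 2.81 and 2.96 in MEK5DD libraries. Replicates of Hs-578T parental and MEK5DD cells differed most. Over 13706 genes the log2 ratio of replicate 1 to replicate 2 fell in these groups with the length of the longest transcript. Spearman's rho was -0.529 in parental and -0.485 in MEK5DD libraries, across genes, which are not independent replicates. In MDA-MB-231 ERK5-ko libraries the ratio rose with that length (rho = 0.442). In the remaining groups rho lay between -0.138 and 0.143. The part of this in the results was not tested. In such bulk RNA, fewer cells that carry a transcript and less of it per cell cannot be told apart.

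The parental lines were compared first, to show the starting level of the pathway in each. HMGCS1, MVD, FDFT1 and SQLE stood higher in Hs-578T, while the desaturases FADS1, FADS2 and SCD, the exporters ABCA1 and ABCG1 and INSIG2 stood higher in MDA-MB-231. The 7 mevalonate genes were split, with 2 higher (IDI1 and PMVK) and 3 lower in MDA-MB-231. Of the 36 genes 20 were higher in MDA-MB-231 and 8 were lower, where 46.0% and 31.3% of all genes tested were called in these directions by limma at an adjusted p under 0.05. The median log2 difference was 0.47 over the members and 0.19 over all genes tested. With median-ratio scaling, which moved the median over all genes to -0.02, the split was 17 higher and 11 lower.

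SQLE, the squalene epoxidase that takes the first oxygen-dependent step toward sterol, was at 31.4 and 28.1 RPKM in parental MDA-MB-231 and at 221 and 269 in parental Hs-578T. The log2 difference was -3.02 (SE 0.12, adjusted p = 6.32e-10). FDFT1, which makes squalene, was at 105 and 106 RPKM against 384 and 384 (log2 difference -1.86, SE 0.09, adjusted p = 3.97e-09). HMGCS1, the enzyme that makes HMG-CoA, and MVD, which decarboxylates the last mevalonate intermediate, were also lower in MDA-MB-231, with log2 differences of -1.96 (SE 0.15) and -2.26 (SE 0.11). These 4 genes carried the widest gaps in favour of Hs-578T, and no library of either line fell in the range of the other.

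**Figure D1:**
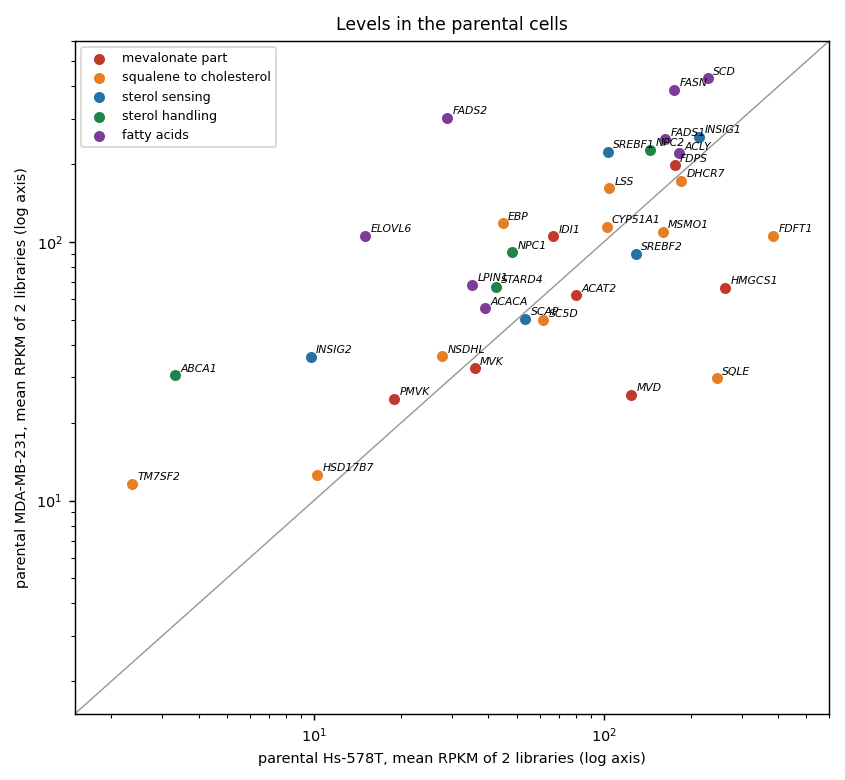
Mean RPKM of the 2 parental libraries of Hs-578T (horizontal) and MDA-MB-231 (vertical), both on log axes, coloured by role, with a line at equal levels; ABCG1, at 0 in Hs-578T, cannot be drawn on a log axis. FADS2, ELOVL6, ABCA1 and INSIG2 lie far above the line and SQLE, MVD, HMGCS1 and FDFT1 far below it.

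In the opposite direction, FADS2, the delta-6 desaturase of polyunsaturated fatty acids, was at 287 and 319 RPKM in MDA-MB-231 and at 28.4 and 29.3 in Hs-578T (log2 difference 3.37, SE 0.12, adjusted p = 1.59e-10). ELOVL6, an elongase of long-chain fatty acids, was at 108 and 104 against 14.5 and 15.5 RPKM (log2 difference 2.78, SE 0.14). All 5 genes of sterol handling were called higher in MDA-MB-231, beside 46.0% of all genes tested. ABCG1 passed the filter on low values through its MDA-MB-231 libraries alone, so it could be called in this direction only. ABCA1, which exports cholesterol to lipid-poor apolipoprotein, stood at 32.3 and 28.7 RPKM against 2.68 and 3.97. ABCG1, which exports cholesterol to high-density lipoprotein, had 300 and 307 reads in parental MDA-MB-231 and 0 reads in both parental Hs-578T libraries. Against the 3 reads that a count of 0 allows in a library, its level was at least 80.1-fold higher in MDA-MB-231, a bound that covers counting error only. INSIG2 followed the same pattern, with 37.9 and 34.0 RPKM against 9.19 and 10.3 (log2 difference 1.83, SE 0.12), whereas INSIG1 gave a log2 difference of 0.26 (SE 0.11, adjusted p = 0.052). In the fit with the replicate block INSIG1 passed at an adjusted p of 0.0057. Among genes, SCD, the stearoyl-CoA desaturase, had the highest RPKM of the set in MDA-MB-231 and FDFT1 in Hs-578T. RPKM here was per mean transcript length, and per length of the longest transcript SCD came first in both lines.

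Each engineered line was then set against its own parental cells. The libraries labelled ERK5-ko in MDA-MB-231 changed the fewest members: 4 of 36 were higher and 2 lower, where 6.91% and 10.4% of all genes tested were called. In Hs-578T the libraries labelled ERK5-ko had 9 higher and 5 lower, where 19.7% of all genes were called higher and 19.7% lower. MEK5DD gave 6 higher and 8 lower in MDA-MB-231, beside 17.5% and 23.8% of all genes. It gave 9 higher and 2 lower in Hs-578T, beside 6.44% and 17.0%. As shares of the 36, these counts were 11.1% and 5.56%, 25.0% and 13.9%, 16.7% and 22.2%, and 25.0% and 5.56%, so that the higher calls of Hs-578T MEK5DD lay furthest above their background, and how far a share of so few genes may stray from it was not tested. The median log2 fold changes of the members were 0.06, 0.12, -0.06 and 0.07 in the same order, against -0.04, 0.01, -0.01 and -0.08 over all genes tested.

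**Figure D2:**
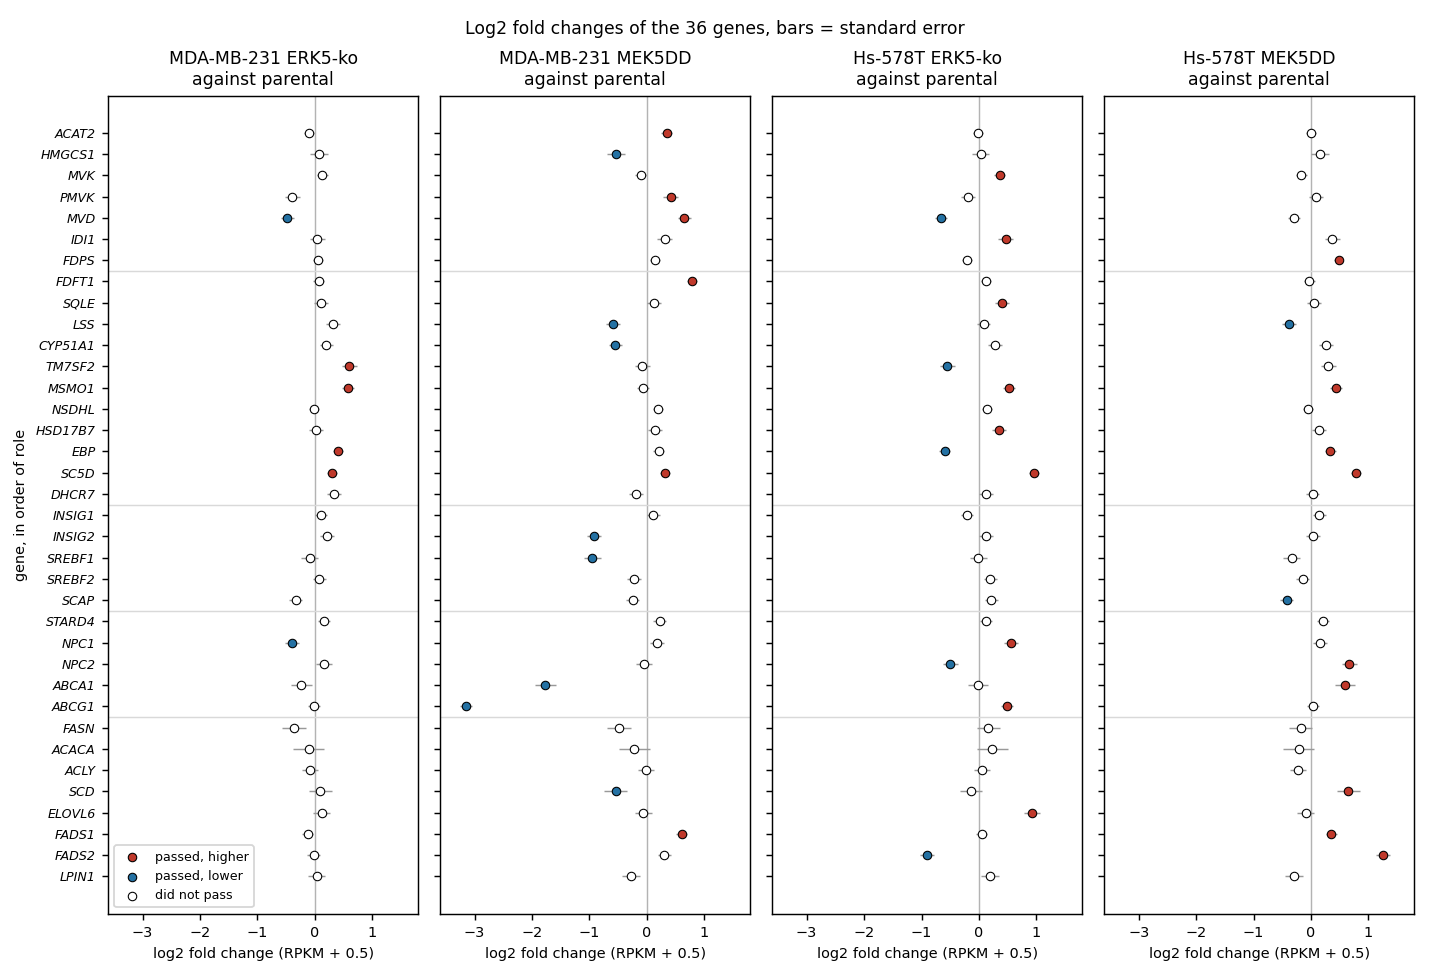
Log2 fold change of each of the 36 genes (rows, grouped by role) on the log2(RPKM + 0.5) scale in the 4 comparisons with parental cells, with standard errors; filled points passed at an adjusted p under 0.05 (red higher, blue lower) and open points did not. ABCG1 and ABCA1 in MDA-MB-231 MEK5DD lie furthest from 0, at -3.16 and -1.77, and SC5D is filled in all 4 panels.

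These counts moved with the libraries and with the scaling. The 6 calls for MDA-MB-231 ERK5-ko became 1 without parental replicate 1, 3 without parental replicate 2, 4 without ERK5-ko replicate 1 and 1 without ERK5-ko replicate 2, and 10 once replicates were paired by a block on their number. Fitted on its own 6 libraries, Hs-578T kept 8 members past the threshold for ERK5-ko and 2 for MEK5DD. MDA-MB-231 on its own gave 12 and 24. The Hs-578T ERK5-ko count was 9 without ERK5-ko replicate 2, and the Hs-578T MEK5DD count was 6 and 7 without parental replicate 1 and 2. The split of higher and lower calls for MDA-MB-231 was 6 and 1 for ERK5-ko and 9 and 7 for MEK5DD with median-ratio scaling, and that for Hs-578T MEK5DD was 12 and 1 with quantile normalization. Of the 45 calls in these comparisons, 19 held in each of 14 alternatives of pseudocount, filter, gene types, scaling, test, libraries fitted together, replicate block and left-out libraries: 1 in MDA-MB-231 ERK5-ko, 7 in Hs-578T ERK5-ko, 9 in MDA-MB-231 MEK5DD and 2 in Hs-578T MEK5DD.

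In the mevalonate part, MVD was the member with the widest swing. In MDA-MB-231 it read 25.9 and 25.3 RPKM in parental libraries, 18.8 and 17.7 in those labelled ERK5-ko and 38.1 and 43.0 in MEK5DD. The 3 groups did not overlap, and ERK5-ko lay below and MEK5DD above the parental cells, with log2 fold changes of -0.48 (SE 0.11, adjusted p = 0.0123) and 0.65 (SE 0.11, adjusted p = 0.000576). In Hs-578T it read 127 and 122 RPKM in parental, 77.4 and 79.7 in ERK5-ko and 90.0 and 114 in MEK5DD libraries. Here both engineered groups lay below the parental cells, with log2 fold changes of -0.66 for ERK5-ko (SE 0.11, adjusted p = 0.000706) and -0.30 for MEK5DD (SE 0.11, adjusted p = 0.0722, and 0.048 in the blocked fit). The value for MEK5DD ran from -0.47 to -0.13 over the alternatives. The call for MDA-MB-231 ERK5-ko was lost without parental replicate 1, parental replicate 2 or ERK5-ko replicate 2 (adjusted p = 0.0915, 0.0697 and 0.091).

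HMGCS1 read 67.6 and 65.6 RPKM in parental MDA-MB-231, 79.2 and 62.3 in ERK5-ko and 45.8 and 45.9 in MEK5DD. It fell in MEK5DD alone among the 4 comparisons (log2 fold change -0.53, SE 0.15, adjusted p = 0.0156), a call that leaving out any of the 4 libraries concerned took to an adjusted p between 0.061 and 0.0826. In Hs-578T its libraries read 237 and 287, 241 and 294, and 257 and 331 RPKM in parental, ERK5-ko and MEK5DD, and these ranges overlapped. ACAT2, which joins acetyl-CoA units at the start of the pathway, and PMVK, the phosphomevalonate kinase, rose in MDA-MB-231 MEK5DD (log2 fold changes 0.34 and 0.42). Their adjusted p-values were 0.00904 and 0.0215, and each call was lost without some libraries, at up to 0.0885 and 0.127. MVK, the mevalonate kinase, and IDI1, the isomerase of isopentenyl diphosphate, rose in Hs-578T ERK5-ko (0.36 and 0.46), and FDPS, the farnesyl diphosphate synthase, rose in Hs-578T MEK5DD (0.48, SE 0.09, adjusted p = 0.00254, and 0.0556 with Hs-578T fitted alone). The calls of MVK and IDI1 (adjusted p = 0.0122 and 0.0133) were lost without ERK5-ko replicate 2, at 0.0968 and 0.153, and without parental replicate 2 for MVK (0.0684) or 1 for IDI1 (0.061). FDPS read 245 and 244 RPKM there against 176 and 175. With the replicate block, IDI1 passed in both MEK5DD comparisons (adjusted p = 0.0378 for MDA-MB-231 and 0.0267 for Hs-578T) and PMVK passed as lower in MDA-MB-231 ERK5-ko (adjusted p = 0.0311). Over the 7 genes, 1 was lower in MDA-MB-231 ERK5-ko, 2 were higher and 1 lower in Hs-578T ERK5-ko, 3 higher and 1 lower in MDA-MB-231 MEK5DD and 1 higher in Hs-578T MEK5DD. All genes tested gave 10.4% lower in the first, 19.7% in each direction in the second, 17.5% higher and 23.8% lower in the third and 6.44% higher in the last, and 1 gene of 7 is 14.3%.

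From squalene to cholesterol, SC5D, the sterol desaturase of the penultimate steps, rose in all 4 comparisons. It read 50.7 and 48.7 RPKM in parental MDA-MB-231, 64.6 and 58.1 in ERK5-ko and 62.5 and 60.8 in MEK5DD, and 61.5 and 62.3 in parental Hs-578T, 118 and 124 in ERK5-ko and 112 and 103 in MEK5DD. No engineered library reached down to its parental pair in either line. The log2 fold changes were 0.30 and 0.31 in MDA-MB-231 (SE 0.09 each, adjusted p = 0.0341 and 0.0133) and 0.96 and 0.79 in Hs-578T (SE 0.09 each, adjusted p = 9.4e-06 and 0.000114). The Hs-578T calls held in all 14 alternatives, and those of MDA-MB-231 were lost without any of the 4 libraries concerned, at adjusted p-values between 0.0511 and 0.22.

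MSMO1, the C-4 methylsterol oxidase, read 111 and 108 RPKM in parental MDA-MB-231, 168 and 159 in ERK5-ko and 105 and 104 in MEK5DD. In Hs-578T it read 165 and 154, 217 and 243, and 240 and 195 RPKM. It rose with ERK5-ko in both lines, by 0.58 (SE 0.11, adjusted p = 0.00373) and 0.53 (SE 0.11, adjusted p = 0.0025), and both calls held in all 14 alternatives. In MEK5DD it rose in Hs-578T (0.44, SE 0.11, adjusted p = 0.0129, lost without parental replicate 2 at 0.065 and without MEK5DD replicate 1 at 0.0548), and in MDA-MB-231 its log2 fold change was -0.07 (adjusted p = 0.653).

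EBP, the sterol isomerase, and TM7SF2, a sterol C-14 reductase, went opposite ways with ERK5-ko in the lines. EBP read 112 and 124 RPKM in parental MDA-MB-231 and 149 and 163 in ERK5-ko, and 47.9 and 41.6 in parental Hs-578T and 29.7 and 29.05 in ERK5-ko. TM7SF2 read 10.7 and 12.5 against 17.0 and 18.7 RPKM in MDA-MB-231, and 2.17 and 2.55 against 1.52 and 1.38 in Hs-578T. The log2 fold changes of EBP were 0.40 and -0.60 (SE 0.09 each, adjusted p = 0.0122 and 0.000477), and those of TM7SF2 were 0.60 and -0.55 (SE 0.13 each, adjusted p = 0.00891 and 0.0061). In MDA-MB-231 both calls were lost without parental replicate 1 (adjusted p = 0.132 for EBP and 0.107 for TM7SF2) and without ERK5-ko replicate 2 (0.106 and 0.0785). In Hs-578T that of TM7SF2, at 31 reads in its lowest library, was lost with voom weights on reads recovered from the RPKM values (0.0648) and without ERK5-ko replicate 2 (0.056). With MEK5DD, EBP was at 135 and 137 RPKM in MDA-MB-231 (log2 fold change 0.21, adjusted p = 0.0986, and 0.0445 with the block) and rose to 57.4 and 55.7 in Hs-578T (0.34, SE 0.09, adjusted p = 0.0227, lost without parental replicate 2 at 0.14 and without MEK5DD replicate 1 at 0.0589).

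In MDA-MB-231 MEK5DD, FDFT1 rose from 105 and 106 to 185 and 179 RPKM (log2 fold change 0.79, SE 0.09, adjusted p = 3.82e-05), while LSS, the lanosterol synthase, fell from 156 and 166 to 102 and 112 RPKM (-0.59, SE 0.12, adjusted p = 0.00208). CYP51A1, the lanosterol demethylase, fell from 116 and 113 to 80.9 and 75.4 RPKM (-0.55, SE 0.12, adjusted p = 0.00267). All 3 held in all 14 alternatives. LSS was also lower in Hs-578T MEK5DD (69.0 and 92.1 against 102 and 107 RPKM, log2 fold change -0.39, adjusted p = 0.0367), a call lost in 7 of 14 alternatives, without parental replicate 1 or 2 and without MEK5DD replicate 1 among them (adjusted p = 0.0712, 0.124 and 0.176).

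SQLE read 31.4 and 28.1 RPKM in parental MDA-MB-231, 31.9 and 32.0 in ERK5-ko and 33.3 and 31.5 in MEK5DD. In Hs-578T it read 221 and 269, 294 and 351, and 235 and 272 RPKM, and only the ERK5-ko libraries lay above both parental ones. The log2 fold change there was 0.40 (SE 0.12, adjusted p = 0.0238), lost without parental replicate 1 at 0.179, without ERK5-ko replicate 2 at 0.209 and with Hs-578T fitted alone at 0.127. HSD17B7, a sterol ketoreductase with a transcribed pseudogene copy in the table, was called higher in the same libraries (0.35, adjusted p = 0.0333), a call lost without parental replicate 2 (0.208) and without either ERK5-ko library (0.056 and 0.198). NSDHL and DHCR7, which act on the C-4 position and at the last reduction, passed in no comparison with parental cells by the test used throughout. NSDHL (log2 fold change 0.19) passed as higher in MDA-MB-231 MEK5DD with median-ratio scaling, quantile normalization and the line fitted alone (adjusted p = 0.0405, 0.0376 and 0.0169). DHCR7 (log2 fold change 0.33, adjusted p = 0.0184) and LSS (0.32, adjusted p = 0.0287) passed as higher in MDA-MB-231 ERK5-ko with the replicate block. Both did so also with median-ratio scaling (0.0281 for DHCR7 and 0.0339 for LSS) and the line fitted alone (0.0349 and 0.0176). CYP51A1 likewise passed as higher in both Hs-578T comparisons with the block (adjusted p = 0.0258 for ERK5-ko and 0.048 for MEK5DD). Of the 11 genes, 4 were higher in MDA-MB-231 ERK5-ko, 4 were higher and 2 lower in Hs-578T ERK5-ko, 2 and 2 in MDA-MB-231 MEK5DD and 3 and 1 in Hs-578T MEK5DD. As shares these were 36.4% higher (6.91% of all genes tested), 36.4% and 18.2% (19.7% and 19.7%), 18.2% and 18.2% (17.5% and 23.8%) and 27.3% and 9.09% (6.44% and 17.0%). Their median log2 fold changes were 0.30, 0.13, 0.12 and 0.14.

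**Figure D3:**
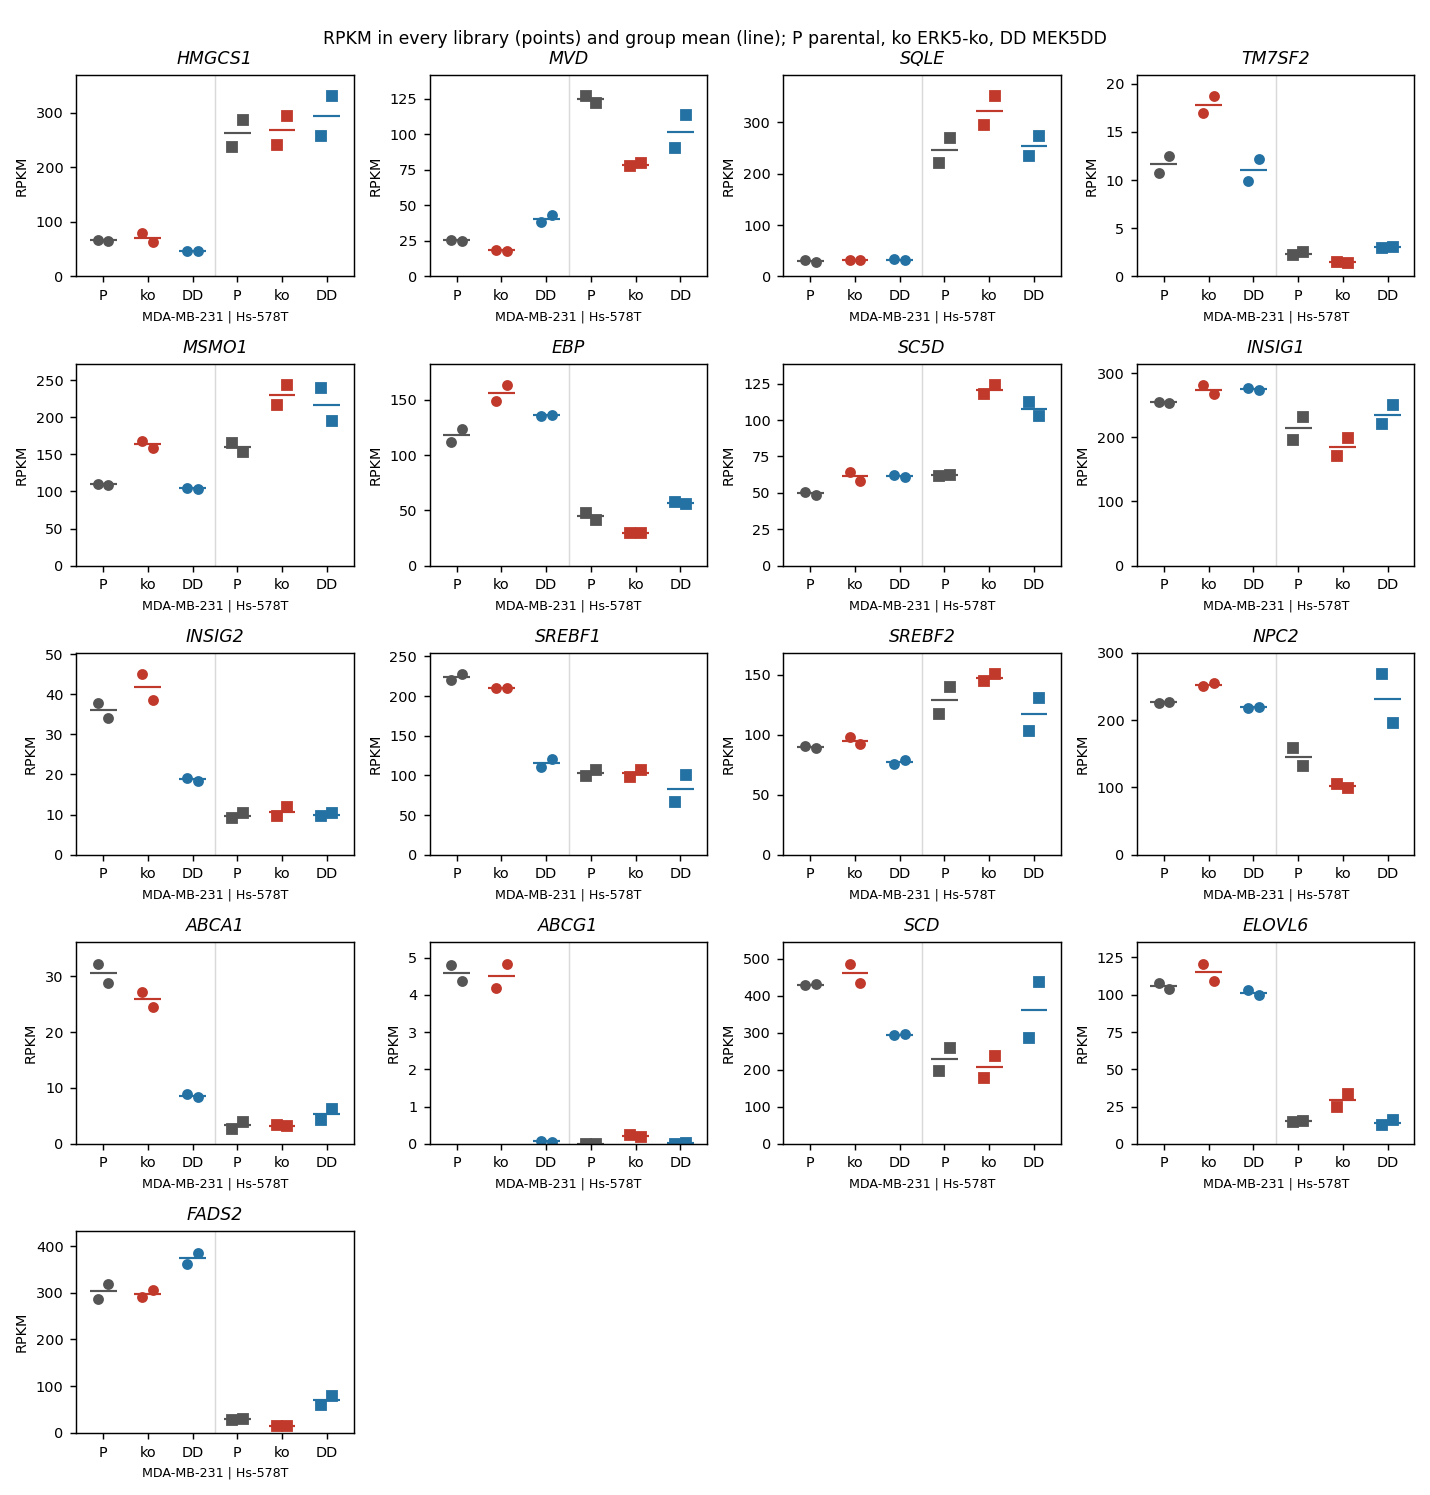
RPKM of 17 genes of the set in each of the 12 libraries (points) with the group mean (line); the vertical axes start at 0 and differ between panels. In SREBF1, INSIG2, ABCA1 and ABCG1 the MDA-MB-231 MEK5DD pair lies below all other MDA-MB-231 libraries, and SC5D stands above parental cells in every engineered group.

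Among the genes that sense sterol, MDA-MB-231 MEK5DD stood apart. SREBF1 read 220 and 227 RPKM in parental MDA-MB-231, 211 and 210 in ERK5-ko and 111 and 120 in MEK5DD. It fell in MEK5DD (log2 fold change -0.95, SE 0.15, adjusted p = 0.000336), and in ERK5-ko its log2 fold change was -0.09 (adjusted p = 0.752). INSIG2 read 37.9 and 34.0, 44.9 and 38.7, and 19.2 and 18.4 RPKM in the same groups. It fell in MEK5DD (log2 fold change -0.92, SE 0.12, adjusted p = 0.000108). Both changes held in all 14 alternatives, and in both genes the MEK5DD pair lay under every other MDA-MB-231 library.

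In Hs-578T the same genes stayed closer to their parental levels. SREBF1 read 99.4 and 107 RPKM in parental, 98.2 and 107 in ERK5-ko and 66.7 and 99.9 in MEK5DD libraries (log2 fold change -0.33 for MEK5DD, adjusted p = 0.131, and 0.042 with the replicate block). That log2 fold change ran from -0.62 to -0.04 over the alternatives, and was -0.62 without MEK5DD replicate 2. INSIG2 read 9.19 and 10.3, 9.55 and 11.8, and 9.61 and 10.4 RPKM, and these groups overlapped. SREBF2 read 90.6 and 89.4, 98.1 and 92.3, and 75.3 and 79.0 RPKM in MDA-MB-231 and 118 and 140, 145 and 150, and 103 and 131 in Hs-578T. It passed in no comparison with parental cells, with log2 fold changes between -0.22 and 0.20. As lower with MEK5DD, it passed in MDA-MB-231 fitted alone (-0.22, adjusted p = 0.0147) and in Hs-578T without MEK5DD replicate 2 (-0.32 in place of -0.15, adjusted p = 0.0411).

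INSIG1, whose RNA is itself a target of SREBP, read 255 and 254, 281 and 267, and 277 and 273 RPKM in MDA-MB-231. In Hs-578T it read 196 and 232, 170 and 199, and 220 and 251 RPKM. It passed in none of the 4 comparisons; its log2 fold changes ran from -0.21 to 0.14, and the lowest of these, in Hs-578T ERK5-ko, passed with the replicate block (adjusted p = 0.0316). SCAP fell in Hs-578T MEK5DD (35.1 and 45.2 against 53.4 and 53.7 RPKM, log2 fold change -0.42, adjusted p = 0.0195), but was past the threshold neither without either parental library (0.0575 and 0.064) nor without MEK5DD replicate 1 (0.0883). With the block it also passed as lower in MDA-MB-231 ERK5-ko (-0.34, adjusted p = 0.0349). Of the 5 sensing genes, limma called 0 with ERK5-ko in MDA-MB-231, where 1 (SCAP) had an unadjusted p under 0.05 and 1 passed with voom weights, and 0 in Hs-578T, where 0 had an unadjusted p under 0.05 and 0 passed with voom weights. It called 2 lower in MDA-MB-231 MEK5DD and 1 lower in Hs-578T MEK5DD (beside 23.8% and 17.0% of all genes tested called lower).

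Sterol handling held the widest changes of the set. ABCG1 had 300 and 307 reads in parental MDA-MB-231 libraries, 239 and 306 in ERK5-ko and 5 and 4 in MEK5DD, or 4.80 and 4.37, 4.19 and 4.84, and 0.0822 and 0.057 RPKM. The parental mean was 65.9 times that of MEK5DD, and the log2 fold change was -3.16 (SE 0.11, adjusted p = 1.9e-09) on the log2(RPKM + 0.5) scale, which understates changes of such low values. ABCA1 read 32.3 and 28.7, 27.3 and 24.5, and 8.85 and 8.34 RPKM in the same groups (log2 fold change for MEK5DD -1.77, SE 0.18, adjusted p = 1.13e-05). Both exporters fell in MDA-MB-231 MEK5DD in all 14 alternatives, and neither passed in MDA-MB-231 ERK5-ko.

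In Hs-578T, ABCA1 read 2.68 and 3.97 RPKM in parental, 3.35 and 3.10 in ERK5-ko and 4.33 and 6.22 in MEK5DD libraries. Here MEK5DD was higher (log2 fold change 0.59, SE 0.18, adjusted p = 0.032), a call lost without parental replicate 1 (0.196) and without MEK5DD replicate 2 (0.154). ABCG1 had 0 and 0 reads in parental, 15 and 11 in ERK5-ko and 0 and 1 in MEK5DD libraries. The ERK5-ko level was at least 3.54-fold higher than the 3 reads that a count of 0 allows in a parental library, at 0.226 and 0.179 RPKM. ABCG1 passed the filter on low values through its MDA-MB-231 libraries alone. Its call as higher in Hs-578T ERK5-ko, counted among the 9, rests on parental libraries without reads. The call held in all 14 alternatives and is counted among the 7 that did so there, but its size depended on the pseudocount. The fitted log2 fold change ran from 0.27 to 4.55 over the alternatives.

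NPC1 and NPC2 together release cholesterol from lysosomes. NPC1 fell in MDA-MB-231 ERK5-ko (70.0 and 68.6 against 88.2 and 94.0 RPKM, log2 fold change -0.39, SE 0.12, adjusted p = 0.0451) and rose in Hs-578T ERK5-ko (67.6 and 74.5 against 43.4 and 52.9 RPKM, 0.56, SE 0.12, adjusted p = 0.00343, and 0.0508 with Hs-578T fitted alone). The first call was lost in 7 of 14 alternatives, among them each with a library left out (adjusted p = 0.135 to 0.231). NPC2 read 158 and 131 RPKM in parental Hs-578T, 104 and 99.3 in ERK5-ko and 268 and 195 in MEK5DD. It fell with ERK5-ko (-0.50, SE 0.13, adjusted p = 0.0126, lost without parental replicate 1 at 0.0965 and without ERK5-ko replicate 2 at 0.0886) and rose with MEK5DD (0.67, SE 0.13, adjusted p = 0.00495, and 0.0835 with Hs-578T fitted alone). In MDA-MB-231 NPC2 lay between 218 and 255 RPKM in all 6 libraries. STARD4, a carrier of sterol between membranes, passed in no comparison with parental cells, with log2 fold changes from 0.13 to 0.22; that of MDA-MB-231 MEK5DD, 0.22, passed with the line fitted alone (adjusted p = 0.0158).

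In the fatty acid genes the engineered lines differed mainly in desaturases and an elongase. FADS2 read 28.4 and 29.3 RPKM in parental Hs-578T, 15.5 and 14.9 in ERK5-ko and 60.6 and 79.6 in MEK5DD. ERK5-ko lay below and MEK5DD above the parental pair, with log2 fold changes of -0.90 (SE 0.12, adjusted p = 0.000133) and 1.25 (SE 0.12, adjusted p = 3.66e-05), and both calls held in all 14 alternatives. In MDA-MB-231, where its level was far higher, it read 287 and 319, 290 and 305, and 361 and 386 RPKM, with log2 fold changes of -0.02 for ERK5-ko and 0.30 for MEK5DD (adjusted p = 0.0569, and 0.0268 with the replicate block). FADS1, the delta-5 desaturase and its neighbour on chromosome 11, rose with MEK5DD in both lines, from 251 and 248 to 383 and 377 RPKM in MDA-MB-231 (0.60, SE 0.10, adjusted p = 0.000427) and from 158 and 166 to 192 and 224 in Hs-578T (0.35, SE 0.10, adjusted p = 0.0235). The Hs-578T call was lost without parental replicate 1 (0.0898) and without MEK5DD replicate 2 (0.0664). The gene models of FADS1 and FADS2 overlap on opposite strands, and the strand setting of the counting was not given in the sources used here. In the whole set 10 members overlap a protein-coding gene. TM7SF2 shares its strand with VPS51 (up to 107 RPKM), CYP51A1 with LRRD1 (up to 76.6) and FADS2 with FEN1 (up to 163.5). ACAT2 lies opposite TCP1 (up to 289.7 RPKM). The part of these overlaps in the values was not tested.

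SCD read 428 and 430 RPKM in parental MDA-MB-231, 487 and 433 in ERK5-ko and 293 and 297 in MEK5DD. In Hs-578T it read 197 and 259, 177 and 238, and 286 and 438 RPKM. It fell with MEK5DD in MDA-MB-231 (-0.54, SE 0.20, adjusted p = 0.0467) and rose with MEK5DD in Hs-578T (0.65, SE 0.20, adjusted p = 0.0351). Leaving out any of the 4 libraries concerned took the first call to between 0.143 and 0.159, and the second was lost without parental replicate 1 (0.18) and without MEK5DD replicate 2 (0.176). ELOVL6 read 14.5 and 15.5 RPKM in parental Hs-578T, 24.8 and 33.6 in ERK5-ko and 12.4 and 15.9 in MEK5DD, and 99.9 to 121 in the 6 libraries of MDA-MB-231. It rose with ERK5-ko in Hs-578T alone (0.92, SE 0.14, adjusted p = 0.000451), a call that held in all 14 alternatives.

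In FASN and ACACA, both of long transcripts, replicates of Hs-578T parental and MEK5DD cells lay far apart. FASN, the fatty acid synthase, read 140 and 209 RPKM in the parental Hs-578T pair and 121 and 189 in the MEK5DD pair, and ACACA, the acetyl-CoA carboxylase, read 29.1 and 48.9 and 23.8 and 44.2. Replicate 1 was the lower library in all of these pairs. FASN, ACACA, ACLY, the ATP-citrate lyase, and LPIN1, a phosphatidate phosphatase, passed in no comparison with parental cells by the test used throughout. Without Hs-578T MEK5DD replicate 2, ACLY and LPIN1 passed as lower with MEK5DD, at -0.49 in place of -0.23 (adjusted p = 0.00518) and -0.55 in place of -0.30 (adjusted p = 0.0115). With MDA-MB-231 fitted alone, FASN passed as lower with ERK5-ko (-0.37, adjusted p = 0.0389) and MEK5DD (adjusted p = 0.00988), the second also with quantile normalization (0.0362), and LPIN1 passed as lower with MEK5DD (adjusted p = 0.043). With the replicate block, FASN passed as lower in MDA-MB-231 MEK5DD (log2 fold change -0.48, adjusted p = 0.0131) and LPIN1 as lower with MEK5DD in MDA-MB-231 (-0.28, adjusted p = 0.0368) and Hs-578T (-0.30, adjusted p = 0.0404). Of the 8 fatty acid genes, limma called 0 in MDA-MB-231 ERK5-ko, where 0 had an unadjusted p under 0.05 and 0 passed with voom weights, 1 higher and 1 lower in Hs-578T ERK5-ko, 1 higher and 1 lower in MDA-MB-231 MEK5DD and 3 higher in Hs-578T MEK5DD. A single gene of 8 is 12.5%, under the 19.7% and 19.7% and the 17.5% and 23.8% of all genes tested, and 3 are 37.5%, beside 6.44%.

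Libraries labelled ERK5-ko and MEK5DD were also set directly against each other within each line. In MDA-MB-231, 12 members were higher in ERK5-ko than in MEK5DD and 7 lower, where 27.1% and 27.9% of all genes tested were called. In Hs-578T, where both groups carry passages 8 and 9, 9 were higher and 10 lower, beside 30.7% and 19.2%. In MDA-MB-231, ABCG1 (3.14, SE 0.11), ABCA1 (1.53, SE 0.18), INSIG2 (1.13, SE 0.12) and SREBF1 (0.86, SE 0.15) were among the widest differences on the side of ERK5-ko. LSS was wider on that side than SREBF1, at 199 and 204 RPKM in ERK5-ko against 102 and 112 in MEK5DD. On the side of MEK5DD were MVD (-1.13, SE 0.11), PMVK (-0.81, SE 0.13) and FADS1 (-0.73, SE 0.10). In Hs-578T, ELOVL6 (1.02, SE 0.14) and SCAP (0.64, SE 0.11) were higher in ERK5-ko, and FADS2 (-2.16, SE 0.12), NPC2 (-1.16, SE 0.13), EBP (-0.93, SE 0.09) and TM7SF2 (-0.85, SE 0.13) were higher in MEK5DD. Fitted on its own libraries, Hs-578T had 9 members past the threshold in this comparison.

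Whether the lines responded differently was tested as the difference of their effects, MDA-MB-231 minus Hs-578T. For ERK5-ko 4 members had a higher and 5 a lower value, where 18.3% and 21.5% of all genes tested were called, and for MEK5DD 2 had a higher and 12 a lower value, beside 21.3% and 18.2%. The largest for ERK5-ko were TM7SF2 (1.15, SE 0.18, adjusted p = 0.000581), EBP (1.0, SE 0.13, adjusted p = 0.000164) and NPC1 (-0.95, SE 0.17, adjusted p = 0.00118), each of which rose in one line and fell in the other. The split for ERK5-ko was 6 and 5 with median-ratio scaling. For MEK5DD the largest were ABCG1 (-3.18, SE 0.15), ABCA1 (-2.36, SE 0.25), SCD (-1.19, SE 0.28), INSIG2 (-0.96, SE 0.17) and MVD (0.95, SE 0.16). That of ABCG1 rests on MDA-MB-231 alone, as a gene without reads in parental Hs-578T could not fall there. MSMO1 did not differ past the threshold between lines for ERK5-ko (0.05, SE 0.15, adjusted p = 0.805), and SC5D rose more in Hs-578T than in MDA-MB-231 in both cases (-0.66, SE 0.12, adjusted p = 0.00142 for ERK5-ko and -0.48, SE 0.12, adjusted p = 0.00867 for MEK5DD).

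**Figure D4:**
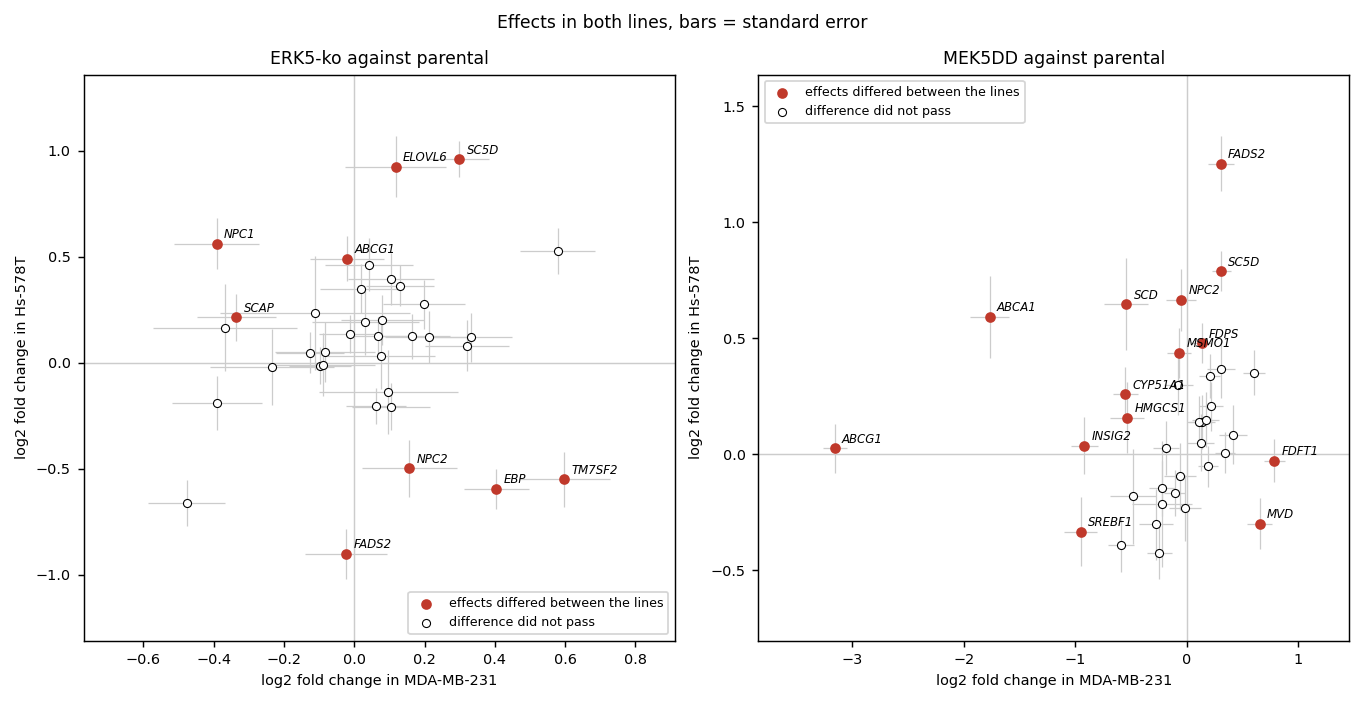
Log2 fold change against parental cells in MDA-MB-231 (horizontal) and Hs-578T (vertical) for ERK5-ko (left) and MEK5DD (right), with standard errors; red points are the 9 and 14 genes whose effects differed between the lines at an adjusted p under 0.05. EBP and TM7SF2 lie at the lower right and NPC1 at the upper left of the ERK5-ko panel, and ABCA1 and SCD at the upper left of the MEK5DD panel.

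Further genes of the pathway were read from lists chosen for their role. Of 22 genes of SREBP processing, sterol storage and uptake, liver X receptors and lipid synthesis, MDA-MB-231 ERK5-ko had 3 higher and 2 lower, Hs-578T ERK5-ko had 6 and 8, and MEK5DD had 1 and 8 in each line. As shares these were 13.6% and 9.09% (6.91% and 10.4% of all genes tested), 27.3% and 36.4% (19.7% and 19.7%), and 4.55% and 36.4% (17.5% and 23.8% for MDA-MB-231, 6.44% and 17.0% for Hs-578T). Their median log2 fold changes were -0.09, 0.09, -0.24 and -0.20. MBTPS2, the site-2 protease that makes the last of the cuts releasing SREBP, fell in MDA-MB-231 MEK5DD from 18.6 and 17.4 to 5.18 and 4.35 RPKM (log2 fold change -1.82, SE 0.12, adjusted p = 2.78e-07). ACSS2, which makes acetyl-CoA from acetate, was at 92.1 and 94.6 RPKM in parental MDA-MB-231, rose to 142 and 138 in ERK5-ko (0.58, SE 0.08, adjusted p = 0.00057) and fell to 42.2 and 44.2 in MEK5DD (-1.10, SE 0.08, adjusted p = 7.41e-07). ME1, a source of NADPH, read 16.3 and 15.4 RPKM in parental MDA-MB-231, rose to 27.3 and 24.1 in ERK5-ko (0.68, SE 0.11, adjusted p = 0.00175) and fell to 8.73 and 8.58 in MEK5DD (-0.84, SE 0.11, adjusted p = 9.39e-05). In Hs-578T it fell with ERK5-ko, from 20.2 and 21.1 to 13.8 and 16.8 RPKM (-0.43, SE 0.11, adjusted p = 0.00929).

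In Hs-578T, GPAM, which starts glycerolipid synthesis, rose in both engineered groups, from 8.99 and 12.5 RPKM to 24.6 and 26.1 with ERK5-ko (1.22, SE 0.14, adjusted p = 4.32e-05) and 16.7 and 18.3 with MEK5DD (0.70, SE 0.14, adjusted p = 0.00403). NR1H3, the gene of liver X receptor alpha, fell with ERK5-ko (-0.86, SE 0.23, adjusted p = 0.0116), and SCARB1, a receptor for high-density lipoprotein, fell with ERK5-ko (-0.71, SE 0.11, adjusted p = 0.000598) and with MEK5DD (-0.67, SE 0.11, adjusted p = 0.00194), and also in MDA-MB-231 MEK5DD (-0.56, SE 0.11, adjusted p = 0.00202). Of 11 genes that lead from mevalonate to ubiquinone, dolichol and prenylated proteins, limma called 0 in MDA-MB-231 ERK5-ko, where 4 had an unadjusted p under 0.05 and 1 passed with voom weights. In Hs-578T ERK5-ko 2 were higher, PDSS1 and RABGGTB (0.72 and 0.57). In MDA-MB-231 MEK5DD 3 were higher and 3 lower, led by PGGT1B (0.71) and GGPS1 (-0.51), and in Hs-578T MEK5DD 1 was lower, COQ2 (-0.34). The shares called in these last 3 comparisons were 18.2% (19.7% of all genes tested), 27.3% and 27.3% (17.5% and 23.8%) and 9.09% (17.0%). Epithelial and mesenchymal markers moved in some of the same libraries. In MDA-MB-231 MEK5DD, VIM was at 3418 and 3492 RPKM against 1610 and 1751 in parental cells, EPCAM at 7.79 and 7.08 against 18.4 and 19.5, and CDH1 at 0.0376 and 0 against 0.640 and 0.650. In libraries labelled ERK5-ko, EPCAM was at 24.4 and 25.7 RPKM in MDA-MB-231, and CDH1 was at 0.930 and 1.16 RPKM in Hs-578T against 0.119 and 0.218 in parental cells. The other markers stayed near parental levels with ERK5-ko. CDH1 was at 0.640 and 0.579 RPKM in MDA-MB-231. EPCAM was at 0.0674 and 0.0365 RPKM in Hs-578T against 0.0774 and 0.0427. VIM was at 1637 and 1598 RPKM in MDA-MB-231, and at 3449 and 3352 against 3608 and 3433 in Hs-578T. The part of this in the sterol results was not tested.

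The starts of the member genes were searched for motifs of factors known to act on this pathway, in RefSeq windows of GRCh38.p14 that run from 250 bases before to 50 bases after the start. Of the 36 genes 31 had a window; ACAT2, FDFT1, SQLE, ABCG1 and FASN had none in the table. CCAAT, the motif of NF-Y, which acts beside SREBP at sterol genes, was found on either strand in 21 of the 31 (67.7%), where 39.7% of the 27305 genes with a window held it. CACGTG, an E-box, was in 5 (16.1%, against 8.77% of genes), and TCACNCCAC, the core of a classical sterol regulatory element, was in 1 (3.23%, against 1.39%), that of SREBF2. The matches are letters in a window and not measured binding. The part before the start is printed for SREBF2, as the holder of the last motif, and for MVD, MSMO1, EBP and SC5D, chosen after their values were seen as the members that passed in 3 or 4 of the 4 comparisons with parental cells; capitals mark these motifs on either strand, each line reads 5′ to 3′ on the strand of the gene, and the last letter lies just before the start.

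Upstream sequences of these 5 genes, from 250 bases before the start:
SREBF2: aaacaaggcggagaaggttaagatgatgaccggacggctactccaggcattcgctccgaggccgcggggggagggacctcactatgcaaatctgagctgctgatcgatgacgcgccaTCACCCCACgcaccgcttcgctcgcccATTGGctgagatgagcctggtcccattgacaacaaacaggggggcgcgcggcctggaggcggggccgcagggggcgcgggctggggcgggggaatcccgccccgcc
MVD: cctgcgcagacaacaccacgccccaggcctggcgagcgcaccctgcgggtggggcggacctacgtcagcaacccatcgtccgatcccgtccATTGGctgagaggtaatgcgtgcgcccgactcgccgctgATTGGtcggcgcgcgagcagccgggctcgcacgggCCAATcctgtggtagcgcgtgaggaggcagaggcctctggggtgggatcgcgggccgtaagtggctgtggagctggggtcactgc
MSMO1: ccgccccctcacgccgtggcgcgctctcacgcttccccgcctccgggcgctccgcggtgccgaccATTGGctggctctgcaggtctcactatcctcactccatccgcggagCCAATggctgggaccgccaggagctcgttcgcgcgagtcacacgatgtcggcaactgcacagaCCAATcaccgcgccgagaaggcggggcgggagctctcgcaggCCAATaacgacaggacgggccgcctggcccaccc
EBP: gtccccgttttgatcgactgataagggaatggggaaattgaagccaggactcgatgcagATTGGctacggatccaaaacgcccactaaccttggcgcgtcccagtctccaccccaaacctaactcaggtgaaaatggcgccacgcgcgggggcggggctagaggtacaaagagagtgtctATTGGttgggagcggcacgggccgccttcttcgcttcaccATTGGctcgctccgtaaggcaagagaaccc
SC5D: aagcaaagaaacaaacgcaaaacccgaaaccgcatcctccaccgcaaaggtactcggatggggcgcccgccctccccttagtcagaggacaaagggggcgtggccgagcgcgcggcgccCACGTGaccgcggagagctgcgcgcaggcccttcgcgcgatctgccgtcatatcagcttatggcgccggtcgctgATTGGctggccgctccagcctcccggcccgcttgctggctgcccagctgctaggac

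In SREBF2 (chr22:41832855-41833104, plus strand) the motif TCACCCCAC lies 125 bases before the start, and ATTGG, which is CCAAT on the opposite strand, lies 102 bases before it. MVD (chr16:88663092-88663341, minus strand) held CCAAT or its complement at 3 places, MSMO1 (chr4:165327419-165327668, plus strand) at 4, EBP (chrX:48521558-48521807, plus strand) at 3 and SC5D (chr11:121292521-121292770, plus strand) at 1, beside a CACGTG 126 bases before the start. These 4 genes moved differently: SC5D rose in all 4 comparisons, MSMO1 rose in 3, EBP rose in 2 and fell in 1, and MVD rose in 1 and fell in 2.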

How the data were processed

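RNA-seq libraries of 12 cultures were prepared with a stranded poly(A) mRNA kit. The authors trimmed reads with Trimmomatic 0.32, aligned them to GRCh38 with TopHat2 2.1.1 and, per the submitters' processing notes, used DESeq2 1.12.4 in R 3.3.1; how these tools were joined, the annotation release and the strand setting of the counting were not given in the sources used here. The deposited values were RPKM in 1 table of 32152 genes, with total reads per library. RPKM came to whole reads with the mean length of a gene's annotated transcripts in 100% of the values tested, so levels set between genes depend on that length. Members and lists were chosen with earlier results of these data known.

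The filter kept protein-coding genes that reached an RPKM of 0.5 in 2 or more libraries. Values were taken as log2(RPKM + 0.5), and 6 group means were fitted over all 12 libraries with limma 3.58.1 (trended variance, 6 residual degrees of freedom, R 4.3.3), with Benjamini-Hochberg adjustment over all 13737 genes within each comparison. A gene passed at an adjusted p under 0.05. An exact permutation test of 2 against 2 libraries cannot go below 0.333 (two-sided) and was not used. The fit was tested on simulated data for MDA-MB-231 ERK5-ko against parental only. The simulated replicates held no shift with transcript length, so this could not show how the fit behaves where replicates differ in that way, as in Hs-578T. Groups and replicate numbers came from sample titles. Same-numbered libraries deviated together from their group means in all pairs of groups within a line (correlation 0.154 to 0.187 in MDA-MB-231 and 0.107 to 0.541 in Hs-578T, across genes), so replicate number was taken as a pairing and fitted as a block in an alternative. Values are per library in sentences, and genes with their RPKM in each library were named by a fixed role, by passing in at least 3 of the 4 comparisons with parental cells, or by being among the 3 widest passing changes in any of these. Other members, among them FDFT1, LSS, CYP51A1, FDPS, SCAP, NPC1, FADS1, FASN and ACACA, were outside this rule. Their RPKM is given for some libraries only. From the further lists, 2 genes per list and comparison were named by the widest passing change. Promoter windows came from RefSeq on GRCh38.p14. Alternatives were the pseudocount (0.1 and 1), the filter (1 and none), all gene types, median-ratio scaling, quantile normalization, limma voom on the recovered reads, each line alone, the block, a fold rule and leaving out each library. Intervals and floors cover counting error only. The sequences of proteins were not used here.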

Additional observations from a re-analysis of the deposited data

Results flagged for a closer look

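The effect of an engineered genotype differed between MDA-MB-231 and Hs-578T for 9 members with ERK5-ko and 14 with MEK5DD, by limma's test of the difference itself at an adjusted p under 0.05. This was 4 higher and 5 lower for ERK5-ko, beside 18.3% and 21.5% of all genes tested, and 2 higher and 12 lower for MEK5DD, beside 21.3% and 18.2%, so that only the lower values with MEK5DD (33.3% of the 36) exceeded their background; values are the log2 fold change in MDA-MB-231 minus that in Hs-578T. With ERK5-ko, the late sterol enzymes TM7SF2 (1.15) and EBP (1.0), the desaturase FADS2 (0.88) and the lysosomal NPC2 (0.65) had the higher value in MDA-MB-231. NPC1 (-0.95), ELOVL6 (-0.81), SC5D (-0.66), SCAP (-0.55) and ABCG1 (-0.51) had the higher value in Hs-578T; that of ABCG1 rests on a parental level of 0 reads and on the pseudocount, and its log2 fold change in Hs-578T ran from 0.27 to 4.55 over the alternatives.

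With MEK5DD, MVD (0.95) and FDFT1 (0.81) had the higher value in MDA-MB-231. The exporters ABCG1 (-3.18) and ABCA1 (-2.36) differed most in the other direction, followed by SCD (-1.19), INSIG2 (-0.96), FADS2 (-0.95), CYP51A1 (-0.81), NPC2 (-0.72), HMGCS1 (-0.69), SREBF1 (-0.62), MSMO1 (-0.51), SC5D (-0.48) and FDPS (-0.34). In Hs-578T, ABCG1 was at 0 RPKM in both parental libraries and at 0 and 0.0193 with MEK5DD, so it could not fall there. Its value rests on its fall in MDA-MB-231 alone and shows no different response of Hs-578T. The log2 fold change of MAP2K5 itself with MEK5DD, on the log2(RPKM + 0.5) scale, was 3.77 for MDA-MB-231 and 0.50 for Hs-578T, and the part of this in the differences was not tested.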

How the results depend on the processing

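With 2 libraries a group, leaving out 1 library moved the number of passing members to 1 to 4 of 6 for MDA-MB-231 ERK5-ko, 9 to 13 of 14 for Hs-578T ERK5-ko, 9 to 10 of 14 for MDA-MB-231 MEK5DD, 6 to 14 of 11 for Hs-578T MEK5DD and 12 to 21 of 19 for Hs-578T ERK5-ko against MEK5DD; a group left with 1 library is assumed to vary like the others. A call that also asked for a fold above 1.5 or below 0.5 left 1, 2, 5 and 5 in the first 4 of these, 11 and 4 for ERK5-ko against MEK5DD (MDA-MB-231, Hs-578T), and 4 and 5 for the ERK5-ko and MEK5DD differences between lines. Each line fitted alone gave 12 and 24 for MDA-MB-231 ERK5-ko and MEK5DD and 8, 2 and 9 for the Hs-578T comparisons. With the replicate number as a block, MDA-MB-231 ERK5-ko gave 10; among the other comparisons with parental cells, the pairing changed no call beyond the genes named with their blocked values, and it lost none. Pseudocounts of 0.1 and 1 and a filter at an RPKM of 1 changed no call against parental cells. The causes of these moves were not tested.

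Only log2 fold changes that had not passed changed sign. With median-ratio scaling these were ABCG1, FADS2 and NSDHL in MDA-MB-231 ERK5-ko (0.04, 0.04 and 0.05), ACLY in MDA-MB-231 MEK5DD (0.02) and NSDHL and FDFT1 in Hs-578T MEK5DD (0.04 and 0.06). With quantile normalization they were ABCG1 and NSDHL in MDA-MB-231 ERK5-ko (0.06 and 0.03), TM7SF2 in MDA-MB-231 MEK5DD (0.02), SREBF1 in Hs-578T ERK5-ko (0.01) and NSDHL in Hs-578T MEK5DD (0.05), and with voom SREBF1, ABCA1 and ACAT2 in Hs-578T ERK5-ko (0.01, 0.01 and 0.00). Leaving out a library gave the following ranges. In MDA-MB-231 ERK5-ko: ABCG1 -0.12 to 0.07, FADS2 -0.10 to 0.05, NSDHL -0.05 to 0.02, IDI1 -0.06 to 0.15, LPIN1 -0.08 to 0.14, HMGCS1 -0.10 to 0.25 and ACACA -0.29 to 0.07. In MDA-MB-231 MEK5DD: ACLY -0.05 to 0.01 and TM7SF2 -0.22 to 0.06. In Hs-578T ERK5-ko: FASN -0.12 to 0.45, ACACA -0.14 to 0.61, ACAT2 -0.10 to 0.07, ACLY -0.05 to 0.16, HMGCS1 -0.11 to 0.17, PMVK -0.38 to 0.00, SCD -0.35 to 0.08, ABCA1 -0.27 to 0.23, SREBF1 -0.07 to 0.05, INSIG2 -0.03 to 0.27, STARD4 -0.04 to 0.29 and FADS1 -0.03 to 0.13. In Hs-578T MEK5DD: INSIG2 -0.04 to 0.12, DHCR7 -0.14 to 0.20, SQLE -0.09 to 0.19, FASN -0.50 to 0.14, ACACA -0.65 to 0.23, ACAT2 -0.02 to 0.03, PMVK -0.11 to 0.28, ACLY -0.49 to 0.03, ELOVL6 -0.27 to 0.08, SREBF2 -0.32 to 0.03, NSDHL -0.12 to 0.02, NPC1 -0.01 to 0.31, FDFT1 -0.07 to 0.02 and HMGCS1 -0.02 to 0.34.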
